A study of Mus musculus with 36 samples.

Results

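The transcripts described here are those of the numbered Zfp genes, the mouse genes named only as a zinc-finger protein with a number. A gene was included when GENCODE release M21 lists it as protein-coding, its symbol is Zfp followed by digits alone, and its raw count averaged 50 or more over all 36 libraries. Zfp36, which shares the prefix but encodes a different kind of zinc finger, was left out. Of 364 such genes 167 met the minimum, and 197 did not. The mean counts just inside it were 50.5 for Zfp850, 51.4 for Zfp408 and 52.4 for Zfp608, and those just outside were 49.3 for Zfp157, 49.2 for Zfp503 and 48.0 for Zfp523. Members were thus chosen by name and selected on their mean raw count, a measured value. The rule uses no comparison between groups, but it was written with earlier results of these data known.

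The libraries came from bone marrow-derived macrophages, which are marrow cells grown into macrophages with the growth factor M-CSF, of N4bp1 knockout (KO) and wild-type (WT) mice. The protocol names the wild-type mice as C57BL/6N and gives no strain for the KO mice. N4BP1 restrains the signalling that leads from Toll-like receptors to NF-κB in macrophages. All cells received R837 (imiquimod), an agonist of Toll-like receptor 7. The 12 groups, each of 3 libraries, were KO and WT cells after 3 h of R837, after 3 h of R837 with 0.5, 1, 2 or 4 h of actinomycin D (ActD), and after 7 h of R837. ActD blocks transcription, so that the decline of a transcript in its presence follows the loss of RNA already made. Cells without R837 were not analysed here, and the labels do not say which part of N4bp1 was deleted. Per the labels the 3 replicates were 3 individual mice. The labels do not number the mice, so it is not known whether the same mouse supplied several groups. The tests treat all libraries as independent.

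Most proteins of this family carry C2H2 zinc fingers, short modules in which 2 cysteines and 2 histidines hold a zinc ion and through which the protein contacts DNA, often in long tandem arrays joined by a conserved linker. Many also carry an N-terminal KRAB domain, which recruits the corepressor TRIM28 and the histone methyltransferase SETDB1. KRAB zinc-finger genes lie in clusters, diverge quickly between species and are known for silencing transposable elements, and mRNAs of zinc-finger regulators are known for short half-lives. A smaller set of the numbered genes encodes proteins with other roles, such as RNA binding, ubiquitin transfer at ribosomes or spindle assembly.

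The following lines show 1 finger from each of 3 members whose transcripts were lost fastest in the first 0.5 h of ActD and from each of 2 that were retained, to show what the family shares and where it differs. Each is coding sequence from GENCODE release M21 on GRCm38, 5′ to 3′ on the coding strand, with the codons of the zinc-binding cysteines and histidines in capitals.
Zfp748, chr13:67541895-67541972, minus strand, exon 4 of 4: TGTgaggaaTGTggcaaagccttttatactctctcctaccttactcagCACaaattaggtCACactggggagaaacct
Zfp709, chr8:71889491-71889568, plus strand, exon 4 of 4: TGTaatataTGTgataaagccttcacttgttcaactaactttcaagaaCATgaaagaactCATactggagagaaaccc
Zfp866, chr8:69766234-69766311, minus strand, exon 4 of 4: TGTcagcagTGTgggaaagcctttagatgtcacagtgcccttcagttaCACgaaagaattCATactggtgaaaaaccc
Zfp106, chr2:120545872-120555266, minus strand, spliced from more than 1 exon: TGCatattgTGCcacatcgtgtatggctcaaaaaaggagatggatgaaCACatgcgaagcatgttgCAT
Zfp207, chr11:80383491-80385963, plus strand, spliced from more than 1 exon: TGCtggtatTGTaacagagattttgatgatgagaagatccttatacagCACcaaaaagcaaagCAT
The first 3 lie within the last exon of their genes and end in the linker codons that join 1 finger to the next. The fingers of Zfp106 and Zfp207 cross splice junctions, and neither protein held a match to that linker.

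Libraries held 20271550 to 46107214 counts, and between 0.1112% and 0.2897% of them fell on the 167 genes. N4bp1 itself averaged 84.1 ± 2.45 CPM (counts scaled to the library's size and TMM factor) in KO cells and 133 ± 12 in WT cells at 3 h (SD, n = 3 each), and 143 ± 1.99 in KO and 174 ± 6.91 in WT at 7 h. With 4 h of ActD it was 87.7 ± 9.52 CPM in KO and 57.6 ± 5.11 in WT. The KO cells therefore kept N4bp1 reads, and their level was not below that of WT cells late in ActD. All 9 macrophage markers averaged 1 CPM or more over the 36 libraries, and they summed to 23100 to 33300 CPM in KO libraries and 22300 to 42700 in WT libraries. The summed level of 7 B and plasma cell markers was 67.3 to 116 CPM in KO libraries and 29.7 to 65.7 in WT libraries, that of 6 T and NK cell markers was 18.7 to 31.6 in KO and 8.36 to 21.5 in WT, and that of 6 fibroblast markers was 20.7 to 36.5 in KO and 8.73 to 23.2 in WT. The 8 neutrophil markers summed to 584 to 888 CPM in KO and 534 to 876 in WT, and the 5 dendritic cell markers to 1.44 to 34.0 in KO and 0.719 to 19.5 in WT. The part of such cells in the differences between genotypes below was not tested.

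Most members were weakly expressed. Per length, the median of their mean deposited RPKM (reads scaled by gene length and by library size) over all libraries was 1.23. The 5 highest were Zfp207, a microtubule-associated factor of spindle assembly, at 61.0 RPKM, Zfp263 at 27.4, Zfp639 at 16.8, Zfp91 at 15.1 and Zfp277 at 11.3. The 3 lowest were Zfp738 at 0.257, Zfp850 at 0.273 and Zfp606 at 0.278 RPKM. The predicted proteins had a median length of 584 residues and a median of 10 matches to the finger pattern, in which the cysteine and histidine pairs lie 12 residues apart. A KRAB core pattern was found in 79 and not found in 88, and members with a divergent box can be among the 88. Those with 0 to 2 fingers numbered 17, those with 3 to 6 numbered 26, those with 7 to 11 numbered 61 and those with 12 or more numbered 63. Chromosome 7 held 38 members, chromosome 17 held 24 and chromosome 8 held 15, and 64 members lay in 13 clusters of 3 or more with gaps of at most 250 kb.

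ActD removed most of these transcripts relative to the rest of the transcriptome. In KO cells the median member was left at 84.9% of its 0 h level after 0.5 h, 48.6% after 1 h, 30.6% after 2 h and 25.8% after 4 h. In WT cells the medians were 88.2%, 54.8%, 32.9% and 26.9% at the same times. The medians of all genes tested stayed between 97.1% and 101% in both genotypes. After 4 h less than 25% was left of 81 members in KO cells and 80 in WT cells, 48.5% and 47.9% of them, against 12% and 12.5% of all genes in KO and WT cells. In bulk RNA, fewer cells of a type and less RNA per cell cannot be told apart. These percentages are relative to the other transcripts, since TMM scaling takes most genes as unchanged. Libraries were also scaled on genes of ribosomal proteins and elongation factors instead (ribosomal scaling below). The median at 4 h was then 18.1% in KO and 17.3% in WT for the members. For all genes it was 68.0% in KO and 65.2% in WT. These medians used the 86 such genes among those tested. The fits with ribosomal scaling used all 103 such genes, which held 0.742% to 1.22% of a library's counts.

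**Figure D1:**
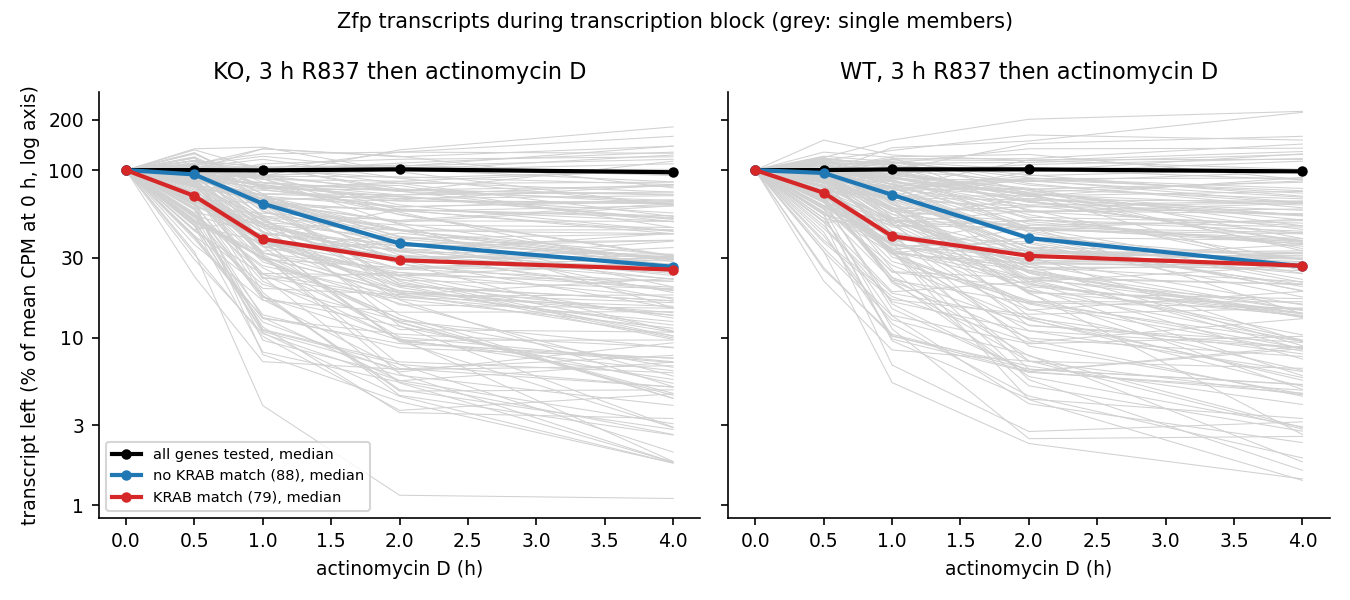
Transcript left during ActD as a percentage of the mean CPM at 0 h (log axis) against hours of ActD, KO on the left and WT on the right. Grey lines are the 167 members and coloured lines are medians, with the KRAB group (red) at 38.8% in KO and 40.3% in WT at 1 h, the group without a KRAB match (blue) at 63.0% in KO and 71.2% in WT, and all genes (black) close to their 0 h level.

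A linear slope over 0 to 4 h was fitted per genotype with edgeR's quasi-likelihood test and Benjamini-Hochberg adjustment over 13537 genes, and an adjusted p below 0.05 was called. In KO cells 145 members fell and 9 rose, where 35.8% of all genes fell and 32.3% rose. In WT cells 140 fell and 11 rose, where 34.8% of all genes fell and 35.5% rose. Of these, 138 fell in both genotypes and 9 rose in both, and the shares of all genes called in both are not given here. The median slope was −0.50 log2 units per hour in each genotype, beside 0.00 in KO and 0.01 in WT for all genes. Ribosomal scaling shifted the median slope of all genes by −0.13 in KO and −0.19 in WT, and then 159 members fell in each genotype, while 1 rose in KO and 2 rose in WT. Under that scaling 57.0% of all genes fell and 5.99% rose in KO, and 66.2% fell and 5.57% rose in WT. Over all 13537 genes the slope had a Spearman's rho with gene length of −0.36 in KO and −0.38 in WT. After a length trend was removed from each library, 135 members fell and 10 rose in KO, where 30.8% of all genes fell and 36.4% rose. In WT 133 members then fell and 12 rose, where 31.3% of all genes fell and 37.9% rose.

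The loss was already visible after 0.5 h. In the fit of all 12 groups, 54 members were lower and 2 higher at 0.5 h than at 0 h of ActD in KO cells, where 4.34% of all 13748 genes were lower and 3.11% higher. In WT cells 47 were lower and 1 higher, where 3.51% of all genes were lower and 3.7% higher. Each later time added members that were lower. After 1 h, 133 were lower and 4 higher in KO (19.5% and 16.6% of all genes) and 115 lower and 4 higher in WT (12% and 10.0%). After 2 h, 142 were lower and 4 higher in KO (27.4% and 23.8% of all genes) and 138 lower and 8 higher in WT (26.5% and 23.4%). The count hardly grew after that. After 4 h, 146 were lower in each genotype, where 36.7% of all genes were lower in KO and 36.6% in WT, and 8 were higher in KO and 9 in WT, where 31.2% of all genes were higher in KO and 31.9% in WT.

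Members with a KRAB match were lost earlier than those without one, and both groups ended at similar levels. At 0.5 h the median left was 70.1% in KO and 73.2% in WT with a match, and 94.2% in KO and 96.1% in WT without. At that time 38 of 79 with a match were called lower in KO and 33 in WT, against 16 of 88 without a match in KO and 14 in WT. The gap persisted at 1 h and had closed by 4 h. At 1 h the medians were 38.8% in KO and 40.3% in WT with a match and 63.0% in KO and 71.2% in WT without. At 4 h they were 25.5% in KO and 26.9% in WT with a match and 26.5% in KO and 26.7% in WT without. These are descriptions of groups of genes, with no test between them.

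The median left also fell in order of the number of fingers at 1 h. At 1 h the median left in KO cells was 84.3% with 0 to 2 fingers, 75.5% with 3 to 6, 51.1% with 7 to 11 and 34.9% with 12 or more. In WT cells the same groups were at 88.5%, 82.2%, 56.6% and 35.9%. The lowest group held only 17 genes, and the order of the other 3 was the same without it. At 4 h the group with 12 or more fingers was left at 11.4% in KO and 16.4% in WT. Among members with 12 or more fingers, the 42 with a KRAB match stood at 64.2% in KO and 66.9% in WT at 0.5 h, and the 21 without one at 87.7% in KO and 86.9% in WT. By 4 h the order had turned, with 21.1% in KO and 25.7% in WT left for the 42, and 7.19% in KO and 8.73% in WT for the 21. Across the 167 members in WT cells, Spearman's rho between the log2 change and the number of fingers was −0.43 at 0.5 h, −0.49 at 1 h and −0.24 at 4 h. The same change had a rho with mean log2 CPM of 0.33, 0.38 and 0.26 at those times, and with the length of the 3′UTR of −0.30, −0.24 and −0.27. The members share the libraries, so these coefficients are descriptions.

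**Figure D2:**
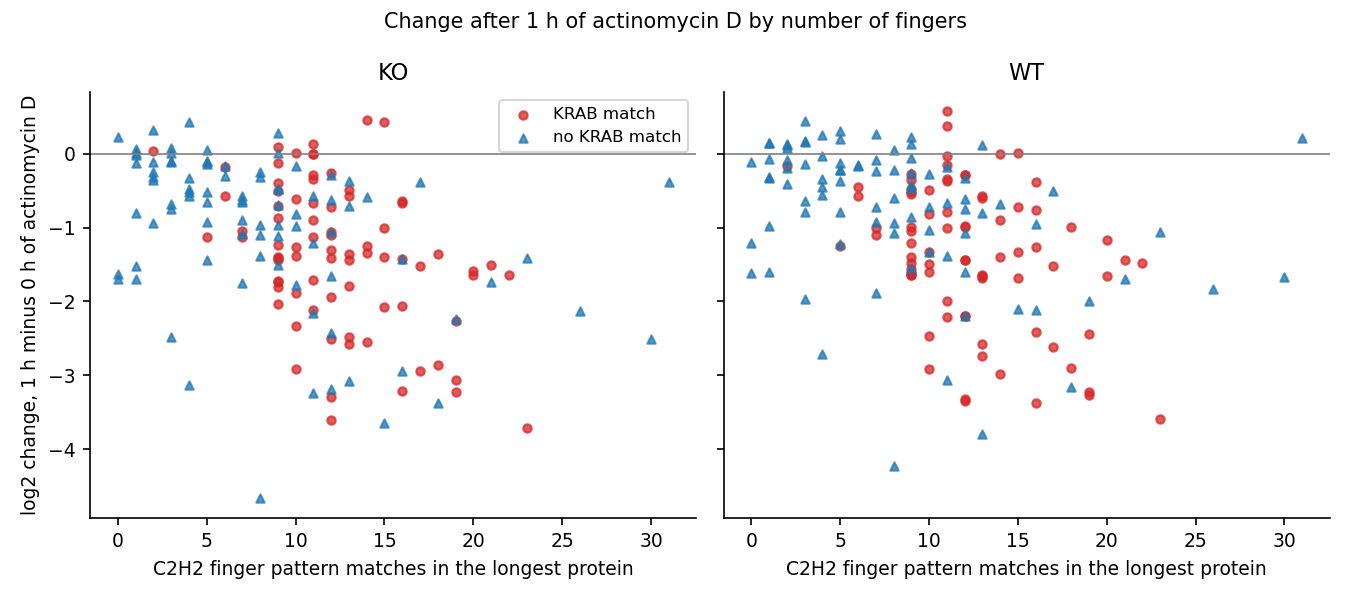
Log2 change between 1 h and 0 h of ActD against the number of finger matches in the predicted protein, KO on the left and WT on the right, 1 point per member, red circles with and blue triangles without a KRAB match. Members with 12 or more fingers sit lowest, at a median of 34.9% of the 0 h level in KO and 35.9% in WT, and those with 0 to 2 fingers sit closest to 0, at medians of 84.3% in KO and 88.5% in WT.

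Zfp748 (ENSMUSG00000095432), a KRAB gene at chr13:67538641-67553830 (GRCm38, minus strand) with 23 fingers, was the member with the least transcript left at 0.5 h in both genotypes. It and the next 2 genes were chosen after their values were seen. In KO cells it stood at 8.65, 7.66 and 10.0 CPM at 0 h, 2.06, 2.41 and 1.63 at 0.5 h and 1.13, 0.367 and 0.405 at 1 h. In WT cells it stood at 10.8, 10.4 and 11.8 CPM at 0 h, 1.88, 2.35 and 2.94 at 0.5 h and 1.17, 0.615 and 1.00 at 1 h. No library at 0.5 h reached the lowest library at 0 h in either genotype. The log2 change at 0.5 h was −2.12 ± 0.20 in KO and −2.18 ± 0.19 in WT (SE), with adjusted p = 3.58e-10 in KO and 2.45e-11 in WT. Its decline then slowed. It stood at 0.606, 0.424 and 1.04 CPM in KO and 0.557, 0.457 and 1.15 in WT at 4 h, and its slope over 4 h was −0.99 ± 0.21 in KO and −1.15 ± 0.23 in WT.

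Zfp709 and Zfp866, KRAB genes in separate clusters on chromosome 8 (chr8:71882019-71895727 and chr8:69761326-69791178), followed the same course. Zfp709 held 29.3% of its 0 h level in KO and 26.2% in WT at 0.5 h, and 7.15% in KO and 4.00% in WT at 4 h. Zfp866 held 31.4% in KO and 25.5% in WT at 0.5 h, with log2 changes of −1.67 ± 0.23 (adjusted p = 9.64e-07) in KO and −1.98 ± 0.23 (adjusted p = 3.23e-08) in WT. Both were weakly expressed, with means of 5.39 ± 0.783 CPM for Zfp709 and 4.19 ± 0.515 for Zfp866 in KO cells at 0 h (SD, n = 3).

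Zfp217 (ENSMUSG00000052056) had the steepest slope in both genotypes. Its human counterpart is a transcriptional regulator amplified in breast cancers, and the gene lies at chr2:170108643-170148103 on the minus strand. In KO cells it stood at 39.8, 42.2 and 36.5 CPM at 0 h, 12.7, 13.7 and 12.3 at 0.5 h, 1.66, 1.91 and 1.10 at 1 h and 0.485, 0.565 and 0.260 at 4 h. In WT cells it stood at 30.2, 34.1 and 33.0 CPM at 0 h, 10.6, 10.1 and 11.2 at 0.5 h, 1.53, 1.73 and 2.00 at 1 h and 0.502, 0.183 and 0.712 at 4 h. At 4 h 1.10% was left in KO and 1.44% in WT. The log2 change at 4 h was −6.49 ± 0.17 in KO and −6.16 ± 0.19 in WT, and the slope was −2.35 ± 0.26 per hour in KO (adjusted p = 8.46e-10) and −2.29 ± 0.28 in WT (adjusted p = 6.6e-09).

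The next steepest members by slope in KO cells were Zfp292 (−2.0), Zfp770 (−1.94), Zfp568 (−1.77), Zfp623 (−1.74) and Zfp319 (−1.67). In WT cells they were Zfp623 (−2.12), Zfp574 (−2.03), Zfp770 (−2.02), Zfp747 (−1.93) and Zfp830 (−1.92). Zfp568, known for repressing a placental Igf2 promoter in mouse embryos, was left at 1.81% in KO and 2.94% in WT at 4 h. Transcripts of Zfp747 share 34.4% of their 50-base stretches with other genes, so its reads could have been split, and its value is uncertain.

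Members with known roles were lost to different extents. Zfp281 (chr1:136624901-136630053), a regulator of pluripotency in mouse embryonic stem cells, stood in KO cells at 2.84, 2.21 and 3.19 CPM at 4 h, against 107, 94.0 and 88.9 at 0 h. In WT cells it stood at 2.90, 1.96 and 2.14 CPM at 4 h, against 86.6, 86.2 and 79.5 at 0 h. Its log2 change at 4 h was −5.12 ± 0.13 in KO and −5.18 ± 0.14 in WT, with adjusted p = 6.24e-31 in KO and 8.04e-30 in WT, and no library at 4 h approached one at 0 h. At 4 h, Zfp143, an activator that binds promoters, was left at 15.0% in KO and 9.69% in WT. Both of these regulators were left well below the median member. Zfp622, a factor of large ribosomal subunit assembly, was left at 9.97% in KO and 7.47% in WT. Zfp451, a SUMO ligase, was left at 13.6% in KO and 14% in WT, and Zfp148, a DNA-binding regulator, at 23.5% in KO and 19.1% in WT. Zfp809, which silences murine leukaemia virus in mouse embryonic stem cells, was left at 38.0% in KO and 41.7% in WT, and Zfp445, a regulator of imprinting, at 25.8% in KO and 27.9% in WT. 

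Further members with known roles also differed widely at 4 h. Zfp592 and Zfp687, partners in a chromatin complex in human cells, were left at 30.3% in KO and 24.1% in WT for Zfp592, and 19.3% in KO and 15.7% in WT for Zfp687. Zfp384, a partner of leukaemia fusion genes in humans, was left at 71.8% in KO and 65.2% in WT, and Zfp335, a human microcephaly gene, at 73.9% in KO and 63.4% in WT. Zfp110, which binds a neurotrophin receptor, was left at 17.0% in KO and 20.8% in WT. Relative to the other transcripts, Zfp384 and Zfp335 thus kept most of their level with TMM scaling, and the other 3 lost most of theirs. With ribosomal scaling the median of all genes at 4 h was itself 68.0% in KO and 65.2% in WT. Zfp346, which binds double-stranded RNA, was left at 43.4% in KO and 37.2% in WT, and Zfp277 at 78.3% in KO and 87.7% in WT. Zfp609 was left at 18.6% in KO and 19.0% in WT, Zfp131 at 61.2% in KO and 65.3% in WT, and Zfp644 at 13.6% in KO and 14.6% in WT.

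**Figure D3:**
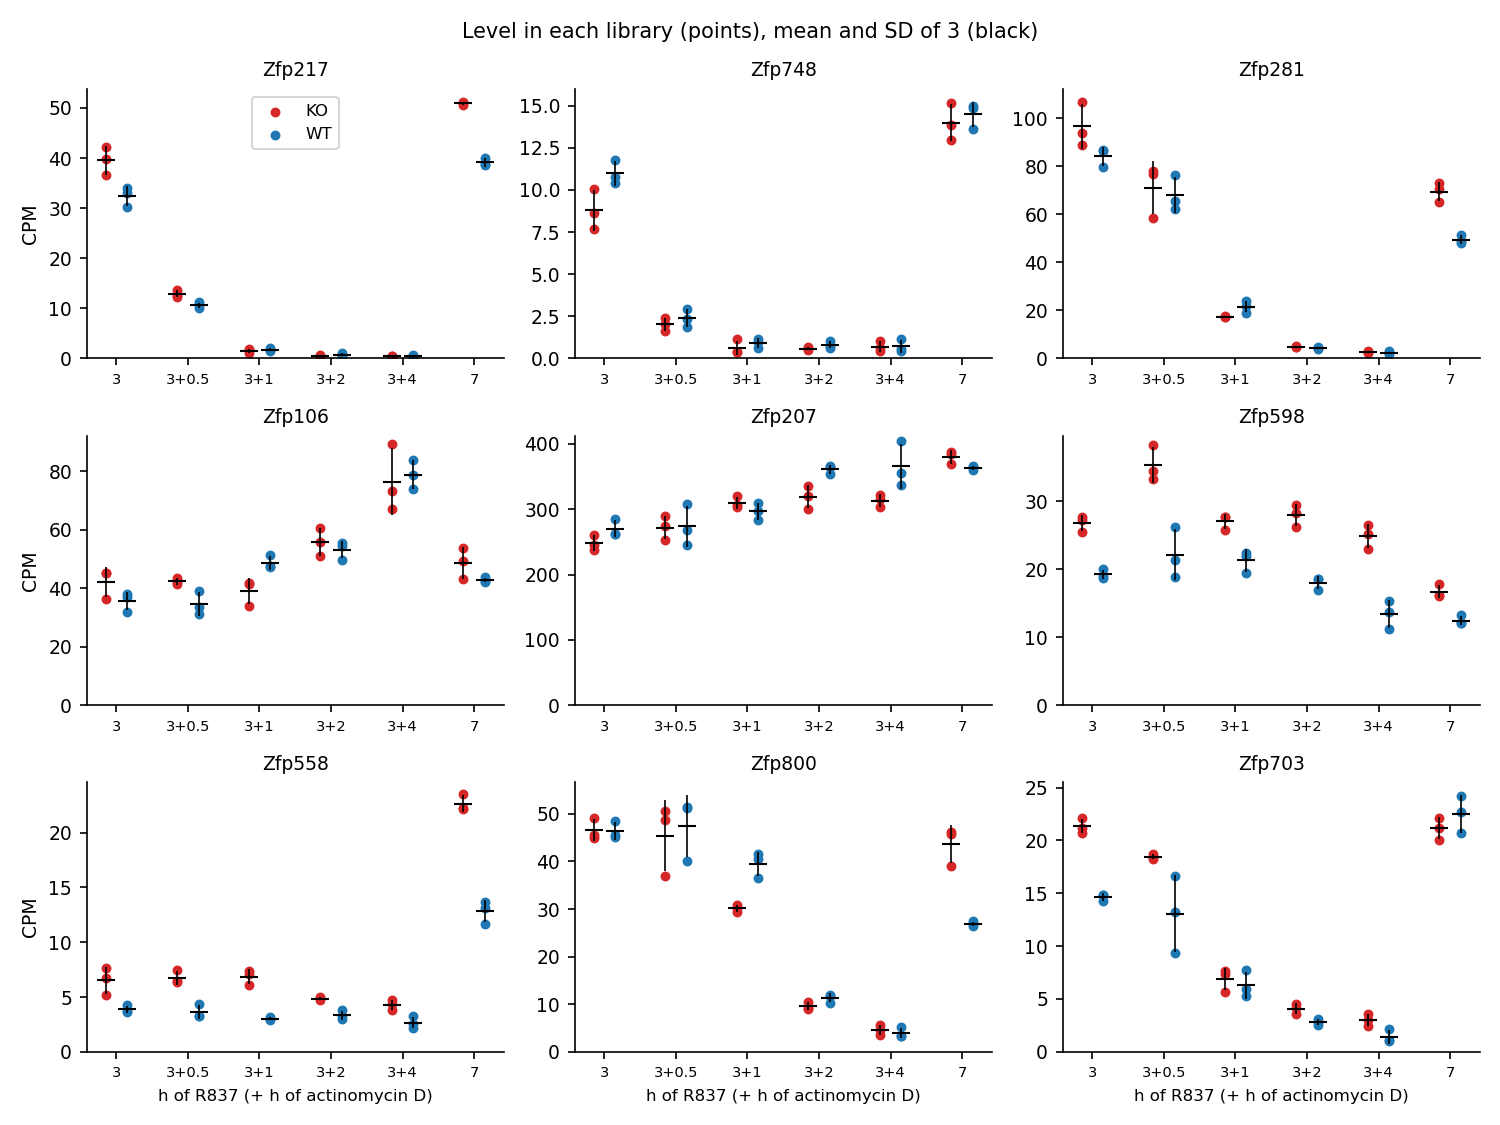
Level in CPM (axes start at 0) of 9 members in each library, KO (red) left of WT (blue), against hours of R837 with hours of ActD after the plus sign; points are libraries and black marks are the mean and SD of 3. Zfp217, Zfp748 and Zfp281 fall to near 0 under ActD, Zfp106 and Zfp207 do not, and Zfp598 and Zfp558 are higher in KO at every time.

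The members that gained share under ActD were few and included well-expressed genes with non-classical roles. KRAB genes were also among them, such as Zfp560, Zfp991, Zfp946 and Zfp938. Zfp938 stood at 139% of its 0 h level in KO and 113% in WT at 4 h. Zfp106, an RNA-binding protein, stood at 89.2, 73.1 and 67.0 CPM in KO cells and 74.0, 83.8 and 78.7 in WT cells at 4 h, against 45.3, 45.1 and 36.2 in KO and 32.0, 38.0 and 37.0 in WT at 0 h. The groups did not overlap, and the log2 change was 0.86 ± 0.10 in KO (adjusted p = 5.49e-10) and 1.14 ± 0.10 in WT (adjusted p = 4.49e-13). Its slope stayed positive and called in both genotypes with ribosomal scaling, although 24.7% of its 50-base stretches occur in other genes. Zfp207 stood at 303, 316 and 322 CPM in KO and 356, 338 and 404 in WT at 4 h, against 238, 246 and 261 in KO and 263, 262 and 285 in WT at 0 h, with log2 changes of 0.34 ± 0.07 (adjusted p = 3.69e-05) in KO and 0.44 ± 0.07 (adjusted p = 4.07e-07) in WT. With ribosomal scaling, the slope of Zfp207 in WT turned to −0.05, so its sign depends on the scaling. Zfp664 and Zfp560 also rose. Zfp664 stood in KO cells at 46.2, 38.6 and 33.7 CPM at 4 h, against 24.9, 26.7 and 23.2 at 0 h, and in WT cells at 34.2, 30.6 and 33.1 CPM at 4 h, against 23.2, 22.6 and 22.8 at 0 h. Zfp560, a KRAB gene, stood in KO cells at 8.10, 9.46 and 9.90 CPM at 4 h, against 6.59, 5.94 and 7.28 at 0 h, and in WT cells at 11.1, 11 and 13.5 CPM at 4 h, against 8.08, 6.53 and 7.70 at 0 h. Their slopes were 0.18 ± 0.02 in KO and 0.14 ± 0.02 in WT for Zfp664, and 0.11 ± 0.03 in KO and 0.22 ± 0.03 in WT for Zfp560. Ribosomal scaling turned the sign of Zfp946 and Zfp664 in WT and of Zfp991, Zfp560 and Zfp91 in KO, where Zfp91 is known as a ubiquitin ligase. The value of Zfp991 is uncertain in any case, since 82.2% of its 50-base stretches are shared.

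No member passed the test of the KO minus WT difference in slope in edgeR or in DESeq2, and 12 of 167 had an unadjusted p below 0.05 in edgeR. Over all genes edgeR called 9, or 0.0665% of 13537. The median difference in slope of the members was 0.00 log2 units per hour. Over the members, the log2 change at 4 h in KO cells followed that in WT cells with a Spearman's rho of 0.98 (167 genes, a description, from separate libraries). A test that is not passed does not show that the genotypes lost these transcripts alike. The slope is a straight line on the log2 scale, but the median left flattened with time. It was 48.6% at 1 h, 30.6% at 2 h and 25.8% at 4 h in KO, and 54.8%, 32.9% and 26.9% in WT. The part of this departure from a line in the outcome was not tested. With only the times from 1 to 4 h, a fit added after the data were seen, 6 members had a higher and 2 a lower slope in KO than in WT, where 7.04% of all 13085 genes tested were higher and 3.02% lower.

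Other C2H2 families also fell, as did most of the corepressor genes. Of 52 tested genes named Zbtb, Zkscan, Zscan, Zfat, Zfx or Zfhx, which combine fingers with other domains, 52 fell by slope in KO and 51 in WT, with median slopes of −0.74 log2 units per hour in KO and −0.80 in WT. Of 20 genes of the KRAB corepressor and heterochromatin machinery, among them Trim28, Setdb1 and the HP1 genes, 15 fell and 4 rose in KO and 14 fell and 4 rose in WT, with medians of −0.28 in KO and −0.23 in WT. The median over all genes was 0.00 in KO and 0.01 in WT.

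The 3′UTRs of the members were also examined for AU-rich letters on the sense strand. The 3′UTR used was that of each gene's transcript with the longest coding sequence, which need not be the gene's longest 3′UTR. For Zfp207 it held only 16 bases. The pentamer ATTTA, the core of AU-rich elements that recruit decay factors, occurred in this 3′UTR in 79.6% of the members and in 65.4% of 11654 tested genes. The heptamer TATTTAT, which contains the pentamer, occurred in 31.1% of the members and 27.3% of those genes. The median 3′UTR was 1243 bases in the members and 936 in those genes, and a longer sequence holds a given pentamer more often. At 4 h the 133 members with ATTTA were left at a median of 20.0% in KO and 20.8% in WT, and the 34 without at 44.4% in KO and 41.7% in WT. With TATTTAT, 52 members were left at 21.3% in KO and 21.1% in WT, and 115 without it at 26.4% in KO and 28.3% in WT. A match to these letters is a description and not a site.

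The share left varied within gene clusters. The cluster at chr13:67194506-67729173 holds 8 KRAB members (Zfp455, Zfp953, Zfp456, Zfp429, Zfp87, Zfp748, Zfp738 and Zfp65), which were left at 7.85% to 29.5% in KO and 6.57% to 43.2% in WT at 4 h. Within it Zfp738 was left at 29.5% in KO and 43.2% in WT and Zfp87 at 15.4% in KO and 26.9% in WT, while Zfp748 was left at 7.85% in KO and 6.57% in WT. All 8 lost most of their transcript. The 6 members at chr17:21926960-22456689 ranged over 20.0% to 120% in KO and 17.5% to 151% in WT, the upper end being Zfp946. The 4 at chr9:20345136-20521417 ranged over 4.35% to 139% in KO and 4.48% to 159% in WT, the upper end being Zfp560. With TMM scaling, a member above its 0 h level in the clusters on chromosomes 17 and 9 thus lay beside members that had lost most of their transcript.

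Between 3 and 7 h of R837 without ActD, more members rose than fell. In KO cells 62 were higher and 24 lower at 7 h than at 3 h, where 28.7% of all genes were higher and 31.7% lower. In WT cells 70 were higher and 15 lower, where 27.3% of all genes were higher and 30.7% lower. The median log2 change of the members was 0.15 in KO and 0.22 in WT, beside −0.03 in KO and −0.04 in WT for all genes. Of the called members, 56 were higher in both genotypes and 13 lower in both, and none was called in opposite directions. For calls in both genotypes the shares of all genes are not given here. Ribosomal scaling shifted the median of all genes by −0.11 in KO and 0.08 in WT. Then 42 members were higher and 26 lower in KO (21.1% and 35.3% of all genes), and 73 were higher and 11 lower in WT (29.7% and 25.1%). With 12 or more fingers, 27 of 63 were higher and 8 lower in KO, and 33 were higher and 3 lower in WT. The Zbtb, Zkscan, Zscan, Zfat, Zfx and Zfhx genes gave 20 higher and 13 lower of 53 in KO and 16 higher and 14 lower in WT, and the corepressor list 2 higher and 7 lower of 20 in KO and 5 higher and 6 lower in WT.

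The largest rises were in Zfp558, Zfp948 and Zfp811, all KRAB genes, in both genotypes. Zfp558 stood at 22.2, 23.5 and 22.2 CPM at 7 h, against 5.19, 6.74 and 7.61 at 3 h, in KO cells, a log2 change of 1.81 ± 0.12 (adjusted p = 1.91e-16). In WT cells it stood at 13.6, 13.2 and 11.7 CPM at 7 h, against 3.65, 4.24 and 3.71 at 3 h, a log2 change of 1.73 ± 0.13 (adjusted p = 6.9e-15). Every library at 7 h was above every library at 3 h of its genotype. Zfp948 averaged 8.12 ± 0.881 CPM at 7 h and 2.38 ± 0.0301 at 3 h in KO, and 10.4 ± 0.416 at 7 h and 2.91 ± 0.284 at 3 h in WT (SD, n = 3 each), with log2 changes of 1.77 in KO and 1.83 in WT. Both genes thus rose by similar amounts in the genotypes. Zfp811 rose by 1.62 in KO and 1.51 in WT, and Zfp292 by 1.30 in KO and 1.46 in WT on the log2 scale. Zfp292, among the members lost fastest under ActD in KO, stood in KO cells at 18.4, 22.9 and 21.2 CPM at 7 h, against 8.88, 8.21 and 8.15 at 3 h, and in WT cells at 15.6, 17.1 and 15.9 CPM at 7 h, against 5.35, 6.18 and 6.15 at 3 h. Its libraries at 7 h lay above all those at 3 h. Zfp652 rose by 1.30 in KO and 1.09 in WT, Zfp821 by 1.27 in WT, and Zfp407 by 1.07 in KO.

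The largest falls were in Zfp382, Zfp949 and Zfp319. Zfp382, a KRAB gene at chr7:30121942-30134950, averaged 1.72 ± 0.446 CPM at 7 h and 4.25 ± 0.367 at 3 h in KO and 1.79 ± 0.446 at 7 h and 5.07 ± 0.256 at 3 h in WT. Its log2 change was −1.31 ± 0.21 in KO (adjusted p = 1.19e-06) and −1.49 ± 0.20 in WT (adjusted p = 3.46e-08). Zfp949 changed by −1.13 in KO and −1.25 in WT, and Zfp319 by −0.86 in KO and −0.90 in WT. Zfp263, the second most abundant member by RPKM, averaged 124 ± 5.96 CPM at 7 h and 215 ± 2.60 at 3 h in KO and 104 ± 2.96 at 7 h and 168 ± 9.34 at 3 h in WT, log2 changes of −0.79 in KO and −0.69 in WT. Zfp598, a ubiquitin ligase that acts on collided ribosomes, changed by −0.69 in KO and −0.63 in WT, Zfp219 by −0.74 in KO, and Zfp281 by −0.48 in KO and −0.77 in WT.

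**Figure D4:**
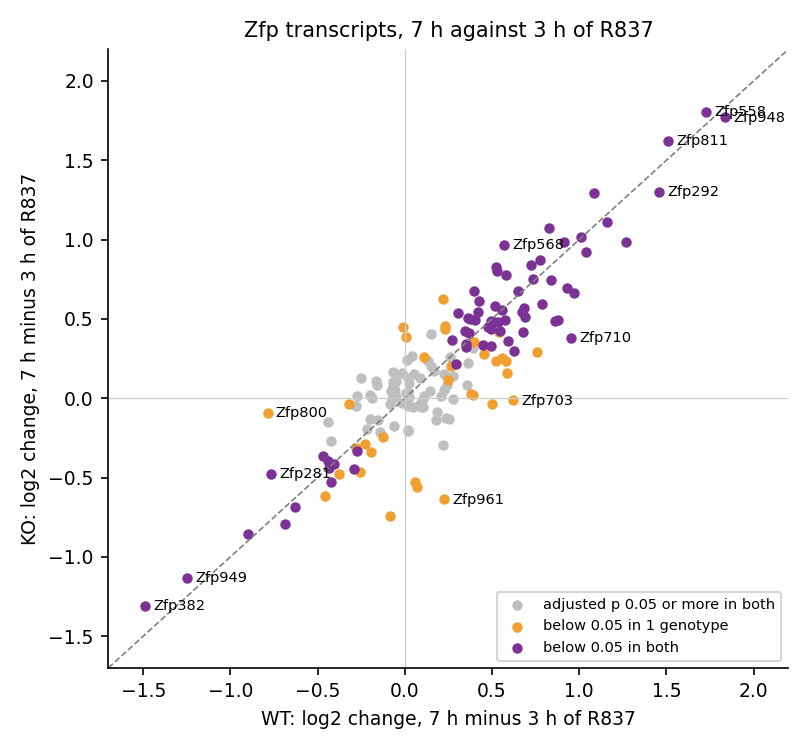
Log2 change between 7 h and 3 h of R837 in KO (vertical) against WT (horizontal) for the 167 members, coloured by the number of genotypes with an adjusted p below 0.05, with the line of equality dashed. Most members lie along the line, 56 of them higher in both genotypes, while Zfp800 lies above it and Zfp961, Zfp703 and Zfp710 lie below it.

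The change between 3 and 7 h differed between genotypes for 4 members, 1 higher and 3 lower in KO, 2.40% of the 167, where the interaction called 12.3% of all genes, 5.45% higher and 6.84% lower. By unadjusted p below 0.05, 19 members differed, and DESeq2 called 1 higher and 4 lower. With ribosomal scaling, the median of all genes shifted by −0.19 and the split became 0 higher and 10 lower, where 1.99% of all genes were higher and 11.1% lower. Zfp800, at chr6:28239927-28398005, stood in KO cells at 45.8, 46.2 and 39.0 CPM at 7 h and 49.2, 45.6 and 44.9 at 3 h, and in WT cells at 26.8, 27.4 and 26.5 CPM at 7 h and 45.1, 48.5 and 45.6 at 3 h. It thus fell in WT cells, with no overlap between the times, while its KO libraries overlapped. The difference of the changes was 0.69 ± 0.15 (adjusted p = 0.00114), and with ribosomal scaling it was 0.50 (adjusted p = 0.107), which ends the call. Zfp710, at chr7:80024814-80094173, stood in KO at 58.5, 61.0 and 61.7 CPM at 7 h and 48.3, 49.1 and 41.9 at 3 h, and in WT at 85.1, 92.3 and 82.8 at 7 h and 42.3, 48.8 and 43.3 at 3 h. Its rise was 0.38 in KO and 0.95 in WT, a difference of −0.58 ± 0.14 (adjusted p = 0.00359).

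Zfp703, a corepressor known in humans as a breast cancer oncogene, stood in KO at 22.2, 20.1 and 21.2 CPM at 7 h and 22.1, 21.2 and 20.7 at 3 h, and in WT at 20.7, 24.2 and 22.6 at 7 h and 14.9, 14.3 and 14.9 at 3 h. Its WT libraries rose, by 0.62 on the log2 scale, and its KO libraries overlapped between the times. The difference of the changes was −0.63 ± 0.19 (adjusted p = 0.0196). It passed no longer without the KO 7 h replicate 2 (adjusted p = 0.0503), the WT 7 h replicate 2 (0.0635) or the KO 3 h replicate 1 (0.0504). Zfp961, a KRAB gene at chr8:71951038-71993792, stood in KO at 3.89, 3.24 and 3.67 CPM at 7 h and 6.68, 5.17 and 4.90 at 3 h, and in WT at 4.76, 5.11 and 4.23 at 7 h and 4.54, 3.53 and 4.03 at 3 h, a difference of −0.86 ± 0.23 (adjusted p = 0.00668).

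KO and WT cells differed in part of the family at each time, by mostly small amounts. At 3 h of R837, 28 members were higher and 5 lower in KO than in WT, where 15.2% of all genes were higher and 12.6% lower. At 7 h, 26 were higher and 8 lower, where 15.5% of all genes were higher and 15.1% lower. Under ActD the split was less one-sided. With 0.5 h of ActD the counts were 22 higher and 9 lower (13.7% and 12.7% of all genes), with 1 h 6 higher and 12 lower (7.51% and 9.92%), with 2 h 14 higher and 17 lower (14.7% and 15.4%), and with 4 h 20 higher and 15 lower (17.7% and 17.9%). With TMM scaling, the share of members called higher was near that of all genes at 3 h and 7 h, and the share called lower was below it. Median log2 differences of the members lay between −0.03 and 0.09. With ribosomal scaling, 63 members (37.7%) were higher and 0 lower at 3 h, where 26.9% of all genes were higher and 3.43% lower. The splits became 31 and 0 at 0.5 h of ActD (16.2% and 4.75% of all genes), 3 and 17 at 1 h (3.41% and 15.0%), 25 and 2 at 2 h (20.1% and 5.83%), 46 and 2 at 4 h (36% and 4.60%), and 16 and 8 at 7 h (11.4% and 13.3%). The median of all genes shifted by 0.19 at 3 h, 0.12 at 0.5 h of ActD, −0.13 at 1 h, 0.15 at 2 h and 0.27 at 4 h. The counts also moved when single libraries were left out, as did those of all genes. Without the KO 3 h replicate 1 the counts at 3 h were 8 higher and 0 lower, where 1253 of 13958 genes were higher and 949 lower. Without the WT 3 h replicate 3 they were 8 higher and 1 lower, where 1292 of 13966 genes were higher and 1083 lower. With every library, 2087 of 13748 genes were higher and 1731 lower at 3 h. At 7 h the count of higher members was 15 without the KO replicate 2 and 17 without the WT replicate 1 or 3. In these 3 fits 1719 of 13985, 1764 of 13969 and 1783 of 13951 genes were higher, against 2126 of 13748 with every library.

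Most of the higher calls were in members without a KRAB match. At 3 h, 7 of 79 KRAB members were higher and 4 lower in KO, and 21 of 88 without a match were higher and 1 lower. Of all genes 15.2% were higher and 12.6% lower. At 7 h the counts were 7 higher and 4 lower with a match and 19 higher and 4 lower without (15.5% and 15.1% of all genes). With 4 h of ActD they were 2 higher and 9 lower with a match and 18 higher and 6 lower without (17.7% and 17.9% of all genes). The groups with and without a match were not matched for expression level, and no test was made between them. Gene length moved with the difference at 3 h, with a Spearman's rho of 0.30 over all 13748 genes. The rho was 0.22 with 0.5 h of ActD, −0.29 with 1 h, 0.14 with 2 h, 0.24 with 4 h and 0.10 at 7 h. After the length trend was removed from each library, 14 members (8.38%) were higher and 5 lower at 3 h, where 13.6% of all genes were higher and 11.1% lower. With 1 h of ActD 11 were then higher and 7 lower, where 9.6% of all genes were higher and 7.23% lower.

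**Figure D5:**
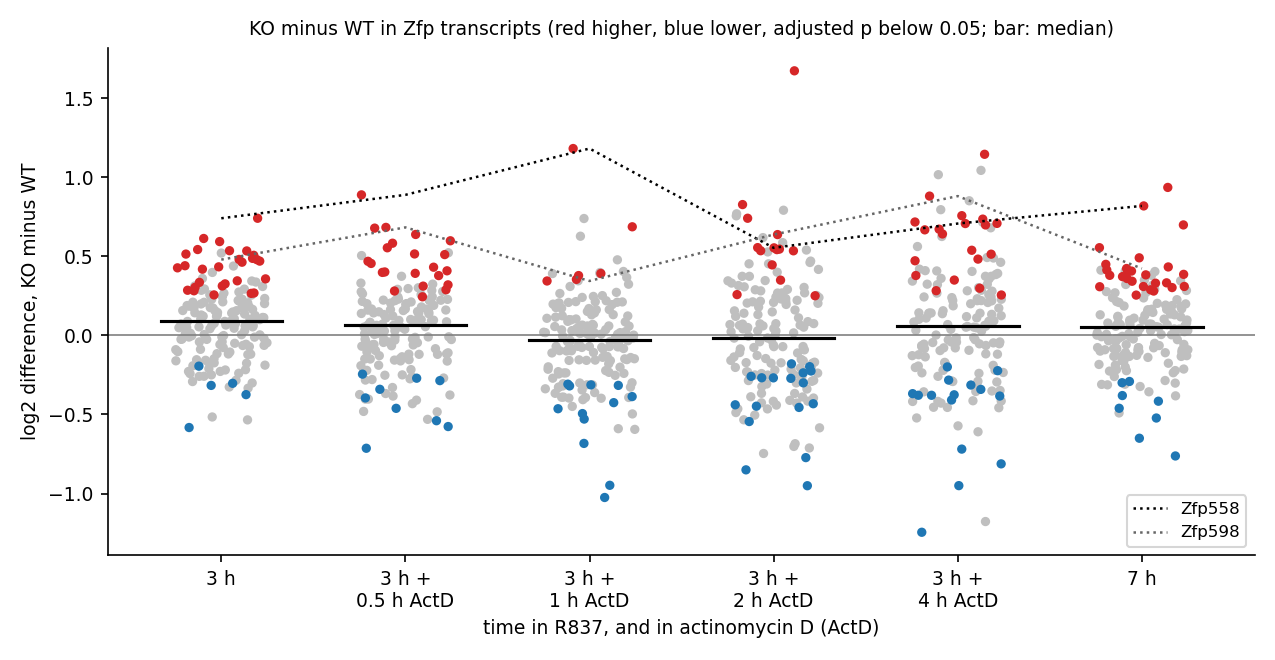
Log2 difference KO minus WT for the 167 members at 3 h of R837, with 0.5, 1, 2 or 4 h of ActD, and at 7 h of R837, each point a member, red when called higher and blue when called lower, with the median as a bar. The medians stay between −0.03 and 0.09, and the dotted lines of Zfp558 and Zfp598 stay above 0 throughout.

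Calls over the 6 times were counted for the members alone, and the matching shares of all genes are not given here. Of the 167 members, 78 were called at none of the 6 times and 3 were called higher in KO at all 6, Zfp558, Zfp598 and Zfp263. Zfp558 (ENSMUSG00000074500), at chr9:18455575-18478268 on the minus strand, showed the largest of these differences. At 3 h it stood at 5.19, 6.74 and 7.61 CPM in KO and 3.65, 4.24 and 3.71 in WT, and the libraries did not overlap. The log2 difference was 0.74 ± 0.14 at 3 h (adjusted p = 7.32e-05), 0.89 ± 0.14 with 0.5 h of ActD, 1.18 ± 0.14 with 1 h (adjusted p = 2.97e-08), 0.55 ± 0.15 with 2 h, 0.71 ± 0.16 with 4 h and 0.82 ± 0.11 at 7 h (adjusted p = 1.64e-07). At 1 h of ActD it stood at 6.10, 7.13 and 7.36 CPM in KO and 2.91, 3.01 and 3.13 in WT.

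Zfp598 (ENSMUSG00000041130, chr17:24669687-24682016) stood at 27.3, 27.6 and 25.4 CPM in KO and 18.7, 19.9 and 19.0 in WT at 3 h, and at 25.2, 26.4 and 22.9 in KO and 13.7, 15.3 and 11.2 in WT with 4 h of ActD. The libraries of the genotypes did not overlap at either time. Its log2 difference was 0.48 ± 0.09 at 3 h (adjusted p = 0.00019), 0.88 ± 0.10 with 4 h of ActD (adjusted p = 7.65e-09) and 0.42 ± 0.10 at 7 h (adjusted p = 0.000952). Zfp263 (chr16:3744093-3750790) differed by 0.36 ± 0.07 at 3 h (adjusted p = 0.000259), 0.74 ± 0.08 with 4 h of ActD (adjusted p = 7.79e-10) and 0.25 ± 0.07 at 7 h (adjusted p = 0.00611). Zfp706 was called lower in KO at 5 of the 6 times, with small differences such as −0.30 ± 0.06 at 7 h (adjusted p = 0.00024).

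At 3 h the other large rises in KO were Zfp991 (0.61, uncertain for its shared sequence), Zfp553 (0.59), Zfp703 (0.54), Zfp568 (0.54) and Zfp318 (0.53), a regulator of IgD expression in mouse B cells. The B and plasma cell markers listed above were also higher in KO, and their part was not tested. The members lower in KO at 3 h were Zfp54 (−0.58), Zfp90 (−0.37), Zfp954 (−0.32), Zfp317 (−0.30) and Zfp706 (−0.19), and each of the 5 lost its call with ribosomal scaling. Transcripts of Zfp90 share 77.1% of their 50-base stretches with other genes, so its value is uncertain.

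At 7 h the largest rises in KO were Zfp568, Zfp558 and Zfp800. Zfp568 stood at 14.2, 15.0 and 15.5 CPM in KO and 7.48, 8.23 and 7.61 in WT, with every KO library above every WT library, a log2 difference of 0.94 ± 0.15 (adjusted p = 5.34e-06). Zfp800 differed by 0.70 and Zfp281 by 0.49. Zfp326, whose human counterpart acts in transcript elongation and splicing, differed by 0.55 and Zfp141 by 0.45. The largest falls were Zfp90 (−0.76), Zfp946 (−0.65), Zfp710 (−0.52), Zfp821 (−0.46), Zfp467 (−0.42) and Zfp120 (−0.38).

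Some of the largest differences under ActD rested on low levels. With 0.5 h, Zfp811 was 0.68 and Zfp382 −0.71 in KO minus WT, and Zfp777 was −0.58. With 1 h, Zfp292 was −1.02, Zfp777 −0.95 and Zfp319 −0.68. With 2 h, Zfp574 averaged 0.663 ± 0.121 CPM in KO and 0.208 ± 0.0366 in WT (SD, n = 3 each), a log2 difference of 1.67 ± 0.47 (adjusted p = 0.00626), and Zfp606 differed by −0.95. With 4 h, Zfp703 stood at 3.56, 3.06 and 2.41 CPM in KO and 2.12, 1.10 and 0.986 in WT, a log2 difference of 1.15 ± 0.25 (adjusted p = 0.000334). Zfp143 differed by 0.76, Zfp87 by −0.81, Zfp958 by −0.95 and Zfp772 by −1.24 at that time.

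Reads of 50 bases can be shared within such a family. The share of a member's 50-base stretches that also occur in transcripts of other genes had a median of 1.24%, and 115 members were under 5%. These 115 were left at a median of 24.7% in KO and 26.3% in WT at 4 h, and the other 52 at 27.9% in KO and 27.1% in WT. Besides those named above, Zfp593 (66.9%), Zfp456 (65.5%), Zfp984 (54.5%) and Zfp213 (52.3%) also had over 50% shared.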

How the data were processed

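RNA-seq libraries of mouse bone marrow-derived macrophages (single-end 50-base reads from a kit that does not mark strand, per the labels' protocols) were analysed, 3 in each of 12 groups, with each of the 3 replicates from an individual mouse. The submitters' processing notes name GSNAP and GRCm38. The handling of reads that match several genes is not given in the sources used here. Whole-number counts per Ensembl gene and RPKM values per gene were deposited by the authors. The deposited counts were used for every test and CPM, and the deposited RPKM only for levels between genes. The deposited gene width is another value and served the length check. Names came from GENCODE release M21, which named 52489 of 52636 identifiers; the 147 without a name held at most 0.0022% of a library's counts.

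The members and lists were chosen with earlier results of these data known. edgeR 4.0.16 in R 4.3.3 was used with TMM scaling (factors 0.821 to 1.09), filterByExpr and a quasi-likelihood test. One fit had 12 group means over 36 libraries (13748 genes), and another had an hourly slope per genotype over the 30 libraries of the ActD course (13537 genes). Both filters kept all 167 members. Fold changes are log2, and SE is the log2 change divided by the square root of F. The biological coefficient of variation was 7.48%. P-values were adjusted by Benjamini-Hochberg over all genes tested. The procedure was tested on simulated data. Fingers (C, 2 to 4 residues, C, 12 residues, H, 3 to 5 residues, H) and KRAB cores were searched in translated coding sequences, and shared sequence was measured over transcripts in stretches of 50 bases. Percent left is mean CPM over that at 0 h.

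Genes were named by a rule: the 6 largest called rises and falls in each main contrast (3 in each ActD time) with a mean of 2 CPM or more, and non-overlapping libraries for contrasts of groups, the extremes of RPKM, and a list of members with known roles. Alternatives were DESeq2 1.42.0, RLE scaling, ribosomal scaling, no filter, a stricter filter (1 CPM or more in 3 libraries), a threshold of 0.01, the compared libraries alone, a length correction, members with a mean count of 200 or more, other forms of the time course, and leaving out each library.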

Additional observations from a re-analysis of the deposited data

Results flagged for a closer look

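For 4 members the change from 3 to 7 h of R837 differed between KO and WT by the interaction term of edgeR's quasi-likelihood test, adjusted over 13748 genes. The KO minus WT difference of the log2 changes was −0.6337 for Zfp703, −0.5761 for Zfp710, 0.6929 for Zfp800 and −0.8625 for Zfp961. For Zfp710 the difference ranged over −0.772 to −0.528 in 21 alternative settings, with adjusted p from 4.2e-05 to 0.0167, and for Zfp961 over −1.067 to −0.704 in 20 settings, with adjusted p from 0.00185 to 0.0488. For Zfp703 it ranged over −0.831 to −0.576 (adjusted p from 0.000179 to 0.0635) and passed in 17 of 21 settings. For Zfp800 it ranged over 0.498 to 0.768 (adjusted p from 3.47e-06 to 0.107) and passed in 20 of 21 settings, with ribosomal scaling the exception. No group has the 4 libraries that a test for single outlying samples needs.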

How the results depend on the processing

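Over the genes named by the rule, 1686 recomputed values kept their direction and side of the threshold, 133 lost the call and 17 turned their sign. The counts of members by contrast moved as follows, with higher before lower where both are given and KO minus WT meant where no other contrast is named. At an adjusted p of 0.01 the counts were 7 and 0 at 3 h, 14 higher at 7 h, 6 and 3 at 0.5 h of ActD, 3 and 6 at 1 h, 5 and 4 at 2 h, 6 lower at 4 h, and 15 lower between 7 and 3 h in KO. The counts of all genes at that threshold are not given here. With ribosomal scaling they were 63 and 0 at 3 h, 16 higher at 7 h, 0 lower at 0.5 h of ActD, 3 higher at 1 h, 25 and 2 at 2 h, 46 and 2 at 4 h, 0 and 10 for the interaction, and 1 higher slope in KO and 2 in WT. Without a filter on low counts 3 were lower at 3 h, and 8 lower at both 2 and 4 h of ActD, where 1541, 1714 and 2008 of 25883 genes were lower. With the length trend removed 14 were higher at 3 h, 17 higher at 7 h, 15 lower at 0.5 h of ActD, and 11 and 7 at 1 h. The shares of all genes were 13.6%, 15.3% and 11.9%, and 9.6% and 7.23%. DESeq2 gave 11 higher at 1 h of ActD, where 1225 of 13748 genes were higher. In fits of the compared libraries alone the counts were 41 and 20 at 7 h, 11 and 2 at 0.5 h of ActD, 7 lower at 4 h, and 2 and 6 for the interaction. There 3160 and 3007 of 12700 genes were called at 7 h, and 1240 and 807 of 12721 at 0.5 h. At 4 h 1727 of 11838 genes were lower, and the interaction called 1039 and 1216 of 13301. With members of a mean count of 200 or more, which are fewer, they were 13 and 3 at 3 h, 12 and 4 at 0.5 h of ActD, 9 higher at 2 h, 26 and 9 between 7 and 3 h in KO, 31 higher between 7 and 3 h in WT, 58 lower slopes in KO, and 7 and 55 in WT. The cause of the other moves was not tested.

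In place of the slope over 4 h, the 0.5 h change gave 2 and 54 in KO and 1 and 47 in WT, the 1 h change gave 4 higher in each genotype, and the 2 h change gave 4 higher in KO. Slopes over 0 to 1 h gave 4 higher in KO and 3 in WT, over 0 to 2 h 4 higher in KO, and over 1 to 4 h 90 lower in KO, with 6 and 2 for the difference in slope. The forms at 0.5, 1 and 2 h and over 0 to 1 h and 1 to 4 h were added after the data were seen. Rises that turned were Zfp106 (−0.104 over 0 to 1 h and −0.118 at 1 h in KO, −0.041 at 0.5 h in WT), Zfp91 in KO (−0.143 at 0.5 h, −0.109 at 1 h, −0.002 at 2 h, −0.096 over 0 to 1 h, −0.032 with ribosomal scaling), Zfp991 in KO (−0.260 at 0.5 h, −0.005 at 1 h, −0.006 with ribosomal scaling), Zfp938 in KO (−0.295 at 0.5 h) and Zfp560 (−0.018 with ribosomal scaling in KO, −0.023 at 0.5 h in WT). With ribosomal scaling, Zfp946 (−0.022), Zfp664 (−0.043) and Zfp207 (−0.046) turned in WT.

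Leaving out 1 library at a time gave 8 to 30 higher and 0 to 9 lower at 3 h, 15 to 23 higher and 7 to 9 lower at 7 h, 11 to 23 and 4 to 17 at 0.5 h of ActD, 3 to 7 and 6 to 11 at 1 h, 7 to 10 and 6 to 15 at 2 h, and 13 to 21 and 3 to 15 at 4 h. Of 13951 to 14005 genes tested, these fits called 1253 to 2326 higher and 949 to 1942 lower at 3 h. At 7 h they called 1719 to 1858 and 1702 to 1779. The ranges were 1253 to 2329 and 1180 to 2124 at 0.5 h of ActD, and 758 to 890 and 937 to 1124 at 1 h. They were 1545 to 1884 and 1441 to 2015 at 2 h, and 1743 to 2452 and 1598 to 2359 at 4 h. Moves of the member counts over 1.5 times came, at 3 h, without KO replicate 1 (8 and 0), 2 (13 and 3) or 3 (9 lower) and WT replicate 1 (17 higher) or 3 (8 and 1). At 7 h they came without KO replicate 2 (15 higher), WT replicate 1 (17 higher) or 3 (17 higher). At 0.5 h of ActD they came without KO replicate 1 (11 higher) or 3 (14 and 5) and WT replicate 1 (17 lower), 2 (12 and 4) or 3 (11 and 4). At 1 h they came without KO replicate 3 (3 and 7) and WT replicate 2 (7 lower) or 3 (6 lower). At 2 h they came without KO replicate 1 (9 and 9) or 2 (7 and 10) and WT replicate 1 (9 higher), 2 (9 and 6) or 3 (9 and 7), and at 4 h without KO replicate 1 (13 higher) or WT replicate 3 (3 lower). The interaction kept 1 higher and gave 2 to 6 lower, with 6 without the WT 3 h replicate 1. Slopes gave 8 to 9 higher and 142 to 146 lower in KO and 8 to 11 and 136 to 147 in WT, with 0 and 0 for their difference. Between 7 and 3 h they were 52 to 60 and 17 to 20 in KO and 64 to 68 and 13 to 18 in WT.

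No paired analysis was possible because the labels give no replicate numbers shared between groups. Members near the minimum of 50 counts have few reads late in ActD, and small differences between genotypes there are not detectable at this depth.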
